A study of Homo sapiens with 12 samples.

Results

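The genes followed here are 9 targets of the transcription factor p53, namely MDM2, SESN1, TP53INP1, ZMAT3, FDXR, GDF15, BTG2, RRM2B and TP53I3. They were taken by gene symbol from the expression tables of both cell lines, where all 9 were present among 23273 genes, and all 9 passed the filter on low values in each line. The study treated the human melanoma cell lines COLO858 and MMACSF with vemurafenib, an inhibitor of the RAF kinases, and sequenced polyadenylated RNA. In each line there were 3 groups of 2 replicates, given the vehicle DMSO, vemurafenib at 0.2 μM for 24 h, or the same dose for 48 h, which makes 12 libraries in all. How long the DMSO cells were kept in vehicle is not in their labels. The labels name no separate cultures behind the replicates beyond the plates, so the p-values measure the spread between these libraries, which may be partly technical. Each line stands for itself as a model, since only these 2 lines and 1 dose were profiled by sequencing.

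p53 is a DNA-binding protein that is kept at a low level in unstressed cells because MDM2, itself a p53 target, marks it for degradation. When DNA damage or another stress releases p53 from MDM2, p53 binds the regulatory DNA of genes that halt the cell cycle, repair DNA, adjust metabolism or start cell death. In melanoma the pathway is known for being restrained through MDM2, MDM4 or loss of CDKN2A. Several of its targets also answer to other regulators, and GDF15 in particular is also a target of the ATF4 stress response.

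p53 recognizes a pair of abutting half-sites whose consensus is palindromic, so a search on one strand reads both. RefSeq start windows (GRCh38.p14) were found for 7 of the 9 genes, in 14 windows, and the 250 bases before each start were searched for the 20-base p53 consensus with its central C and G letters kept intact. The stretches shown hold the closest match to the consensus in MDM2, with 2 mismatches, and in SESN1, with 3. The 20 matching bases are in capitals. The MDM2 stretch is chr12:68808883-68808982 on the plus strand, and the SESN1 stretch is chr6:109008989-109009077 on the minus strand.
MDM2: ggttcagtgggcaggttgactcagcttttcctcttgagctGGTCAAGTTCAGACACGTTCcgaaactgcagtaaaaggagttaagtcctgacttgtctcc
SESN1: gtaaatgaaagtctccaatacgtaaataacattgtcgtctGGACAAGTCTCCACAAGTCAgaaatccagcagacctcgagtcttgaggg
Of all 35116 start windows searched in the same way, 0.242% held a match with at most 2 mismatches and 0.914% one with at most 3. The MDM2 match lies 101 to 82 bases before one annotated start and 94 to 75 bases before another. Both stretches fall in introns of longer transcripts of the same gene and touch none of its annotated exons. FDXR tied with SESN1 at 3 mismatches, in a stretch that overlaps annotated FDXR exons and is not shown. ZMAT3 had a match with 4 mismatches. The best match had 6 mismatches in the GDF15 window and 10 in the TP53I3 window, and the BTG2 window had none with the central letters intact. A match in these letters describes the sequence and is not evidence of p53 binding in these cells.

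The values are FPKM, that is fragments scaled to transcript length and library size, so that levels can be set side by side between genes. How the library size was set is not stated. Changes were tested with limma on log2(FPKM + 1), with the replicates taken as unpaired, over all genes that reached a group mean of 1 FPKM. A gene is called changed at a Benjamini-Hochberg adjusted p under 0.01. Read depth is unknown, since the tables hold no counts. The summed FPKM, which is not a depth, ran from 670310 to 1013040 in COLO858 and from 726083 to 856083 in MMACSF. Melanocyte-lineage markers (7 genes) summed to between 699 and 4142 FPKM in COLO858 and between 11158 and 17549 FPKM in MMACSF, with MLANA below the filter in COLO858. Some of these markers moved with the drug. In COLO858, 3 of 6 tested were called higher at 24 h and 3 of 6 at 48 h, where 4.11% and 4.74% of all tested genes were. The median log2 changes were 1.29 and 1.98. In MMACSF 1 and 3 of 7 were called higher, with medians of 0.42 and 0.59, where 5.83% and 8.83% of genes were called in either direction. The change was below 0 for 2 of the 6 in COLO858 at 48 h and for 1 of the 7 in MMACSF at each time. MITF had means of 67.7 FPKM in DMSO and 67.3 FPKM at 48 h in COLO858, and S100B in MMACSF had 819 and 673 FPKM. DCT, a pigment enzyme, went in COLO858 from 252 and 283 FPKM in DMSO to 2788 and 3041 FPKM at 24 h. Markers of keratinocytes, immune, endothelial and stromal cells (9 genes) summed to between 0.716 and 3.90 FPKM in every library, and of these COL1A1 was called higher in COLO858 at 48 h, where it stood at 1.54 and 1.15 FPKM. The part of these markers in the results on the 9 genes was not tested.

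In vemurafenib 3 of the 9 genes rose in COLO858 at 24 h, namely TP53INP1, BTG2 and TP53I3, and TP53INP1 and BTG2 were also called higher than DMSO at 48 h. In MMACSF 0 of the 9 passed the unpaired limma test at either time. GDF15, the most abundant of the 9 in DMSO, had lower levels in drug in both lines, with differences that did not pass the unpaired test. Its replicates lay about 2-fold apart in every group. MDM2, the feedback inhibitor of p53, was close to its DMSO level in drug in each line.

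**Figure D1:**
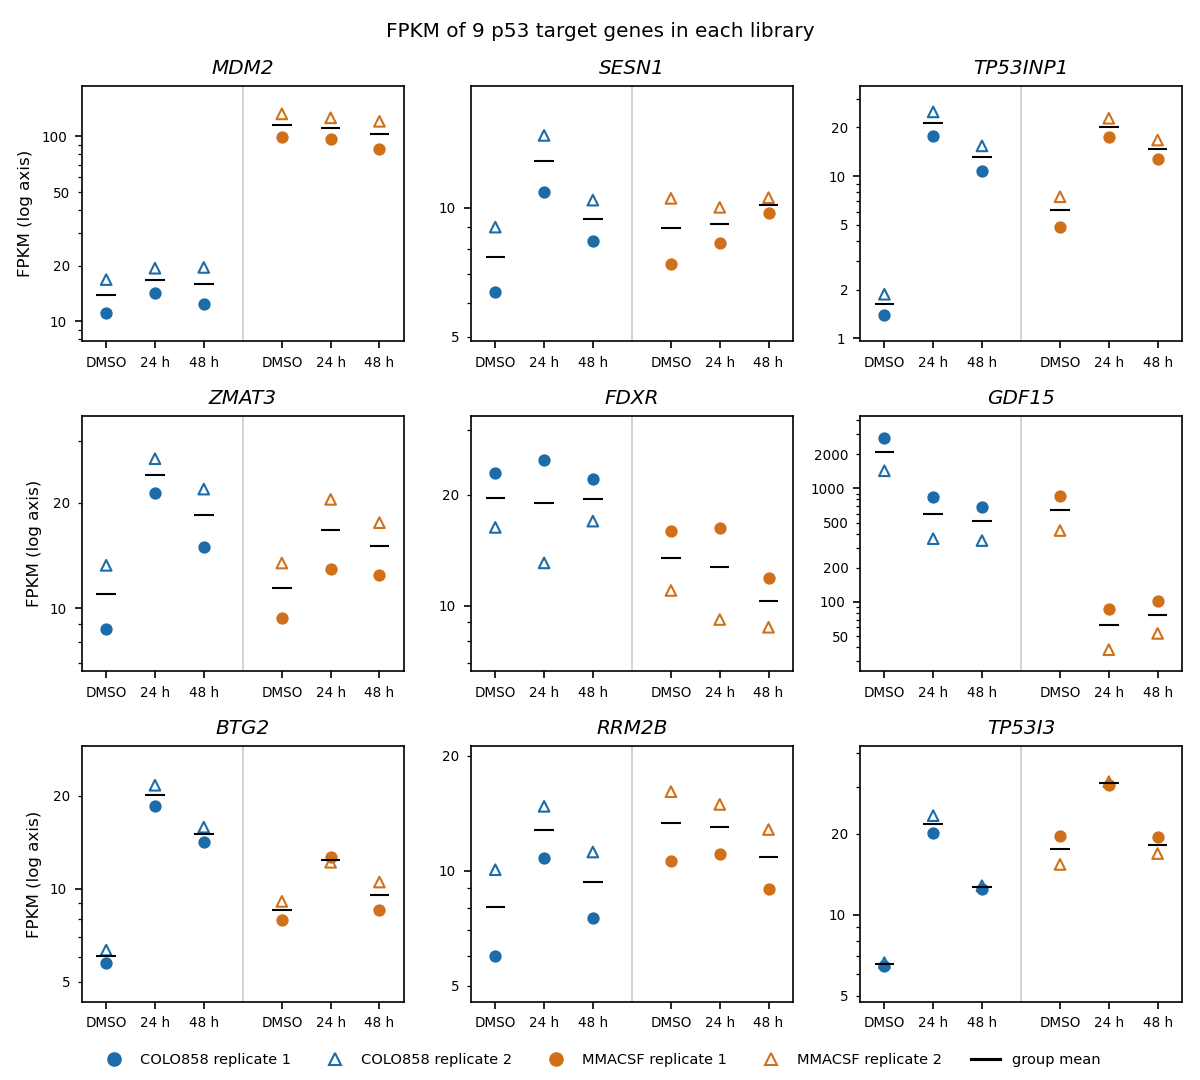
FPKM on a log axis of each of the 9 p53 target genes in vehicle and at both drug times, with COLO858 to the left and MMACSF to the right of the grey line in each panel. Filled circles are replicate 1, open triangles replicate 2 and black bars the mean of 2 libraries. TP53INP1 in COLO858 runs from 1.63 FPKM in DMSO to 21.3 FPKM at 24 h, and MDM2 sits at 85.2 FPKM or more in every MMACSF library.

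The first question was how the p53 targets that act on growth and stress behaved in drug. TP53INP1, a stress-induced nuclear protein that acts in autophagy and cell death, stood at 1.39 and 1.87 FPKM in the COLO858 DMSO replicates. It stood at 17.7 and 24.9 FPKM after 24 h and at 10.8 and 15.4 FPKM after 48 h. Every drug-treated COLO858 library was therefore above both DMSO libraries, and both 48 h libraries were below both 24 h libraries. TP53INP1 rose by a log2 fold change of 3.07 ± 0.25 (SE, n = 2 per group, limma adjusted p = 0.00195) at 24 h and 2.41 ± 0.25 (limma adjusted p = 0.00390) at 48 h. On the means these are 13.1-fold and 8.02-fold higher levels. The difference between 48 and 24 h was -0.66 ± 0.25 (limma adjusted p = 0.234). In MMACSF, TP53INP1 stood at 4.86 and 7.46 FPKM in DMSO, at 17.5 and 22.7 FPKM after 24 h and at 12.8 and 16.7 FPKM after 48 h. The drug-treated libraries were again all above the DMSO libraries, and the log2 differences of 1.57 ± 0.25 and 1.15 ± 0.25 missed the threshold (limma adjusted p = 0.0134 and 0.0264). The levels in drug were close in the 2 lines, at means of 21.3 and 20.1 FPKM after 24 h, whereas the DMSO means were 1.63 FPKM in COLO858 and 6.16 FPKM in MMACSF. These levels come from tables deposited separately for each line and were not tested against each other.

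BTG2, an antiproliferative protein that recruits the mRNA deadenylation machinery, stood at 5.77 and 6.34 FPKM in COLO858 in DMSO. It stood at 18.5 and 21.6 FPKM after 24 h and at 14.2 and 15.8 FPKM after 48 h. The 3 groups did not overlap. BTG2 rose by a log2 fold change of 1.57 ± 0.15 (SE, n = 2 per group, limma adjusted p = 0.00294) at 24 h and 1.18 ± 0.15 (limma adjusted p = 0.00664) at 48 h. In MMACSF, BTG2 stood at 7.93 and 9.11 FPKM in DMSO, at 12.7 and 12.2 FPKM after 24 h and at 8.54 and 10.5 FPKM after 48 h. Both 24 h libraries lay above DMSO, while the 48 h libraries overlapped it, and the log2 differences were 0.50 ± 0.16 and 0.14 ± 0.16 (limma adjusted p = 0.0786 and 0.542).

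TP53I3, a quinone oxidoreductase-like enzyme linked to reactive oxygen species, stood at 6.43 and 6.63 FPKM in COLO858 in DMSO. It stood at 20.2 and 23.4 FPKM after 24 h and at 12.5 and 12.8 FPKM after 48 h. The groups did not overlap, and the 48 h libraries lay between the other two groups. TP53I3 rose by a log2 fold change of 1.59 ± 0.14 (SE, n = 2 per group, limma adjusted p = 0.00234) at 24 h, and the difference of 0.86 ± 0.14 at 48 h missed the threshold (limma adjusted p = 0.0123). In MMACSF it stood at 19.7 and 15.4 FPKM in DMSO, at 30.5 and 31.3 FPKM after 24 h and at 19.5 and 16.9 FPKM after 48 h. The 24 h libraries were above DMSO and the 48 h libraries lay within its range, with log2 differences of 0.79 ± 0.16 and 0.06 ± 0.16 (limma adjusted p = 0.0255 and 0.820). The 48 h against 24 h differences were -0.74 ± 0.14 in COLO858 and -0.73 ± 0.16 in MMACSF (limma adjusted p = 0.0471 and 0.286).

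These 3 calls among 9 genes at 24 h in COLO858 stand beside a background of 4.11% of the 12696 tested genes called higher and 9.82% called in either direction. At 48 h the 2 calls among 9 stand beside 4.74% called higher and 9.47% called in either direction. The median log2 change of the 9 genes was 0.67 at 24 h and 0.27 at 48 h in COLO858, against 0.06 and -0.01 over all tested genes. In MMACSF limma called 0 of the 9 genes at 24 h, where 5.83% of 12599 genes were called, and 0 at 48 h, where 8.83% were called. At an unadjusted p under 0.05 the counts in MMACSF were 4 genes at 24 h and 2 at 48 h, where 36% and 38.9% of all tested genes had one. The medians in MMACSF were 0.04 and 0.06, against 0.07 and 0.06 over all tested genes. Before any test, 6 of the 9 genes had both 24 h libraries above both DMSO libraries in COLO858, where 34.1% of all tested genes did, and 4 did so at 48 h, where 29.9% did. In MMACSF 3 did so at 24 h and 1 at 48 h, where 34% and 35.7% of genes did. GDF15 was the 1 gene with all drug libraries below DMSO in each of these comparisons, which held for 29%, 31.4%, 25.8% and 28.8% of genes. The 24 h and 48 h comparisons of a line share its DMSO libraries and are not independent of each other.

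The calls rested on few libraries. Leaving out any 1 of the 6 COLO858 libraries ended the calls of BTG2 and TP53I3 at 24 h. It also ended those of TP53INP1 and BTG2 at 48 h. The log2 changes then were 1.47 to 1.68, 1.49 to 1.70, 2.17 to 2.64 and 1.10 to 1.26 in that order. For TP53INP1 at 24 h they were 2.84 to 3.30, and its call was kept only when the library left out was a 48 h one. Each such fit has 1 library in a group, and calls over all genes became fewer too.

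**Figure D2:**
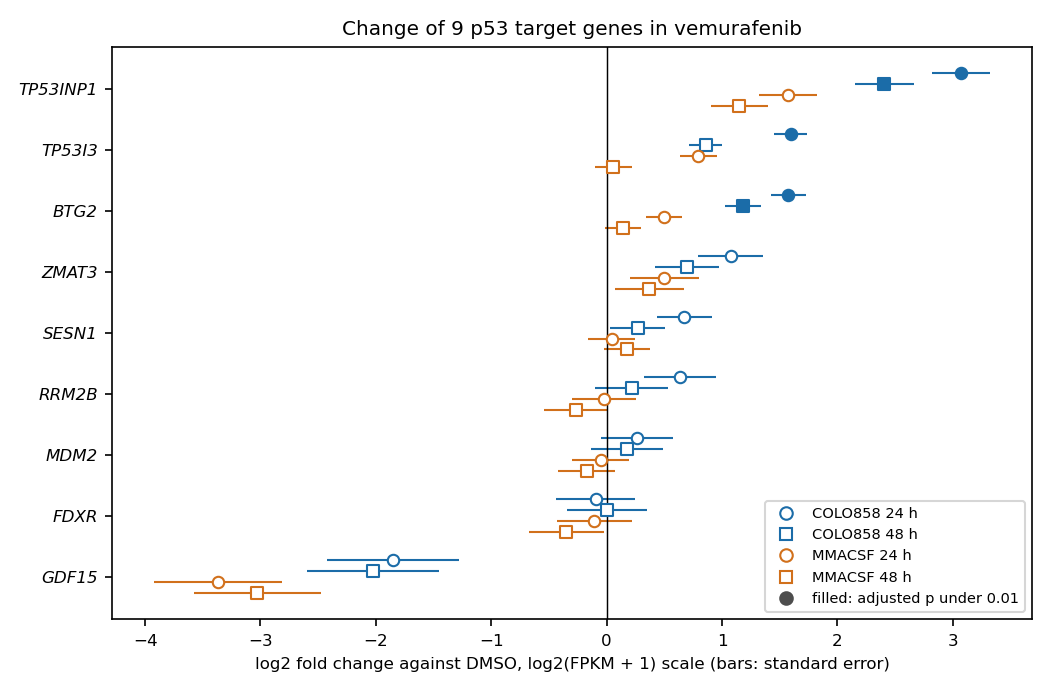
Log2 fold change against DMSO on the log2(FPKM + 1) scale for the 9 genes, with circles at 24 h, squares at 48 h, COLO858 in blue, MMACSF in orange and bars showing the standard error of the limma fit (n = 2 per group). Filled symbols mark an adjusted p under 0.01 and are TP53INP1 (3.07 and 2.41), BTG2 (1.57 and 1.18) and TP53I3 (1.59 at 24 h), all in COLO858, while GDF15 lies lowest in all 4 comparisons.

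ZMAT3 and SESN1 are 2 further targets with growth or stress functions, and neither was called with the replicates taken as unpaired. ZMAT3, a zinc finger protein that binds RNA, stood at 8.73 and 13.2 FPKM in COLO858 in DMSO, at 21.2 and 26.7 FPKM after 24 h and at 15.0 and 21.8 FPKM after 48 h. Its drug-treated libraries were all above DMSO, with log2 differences of 1.07 ± 0.28 and 0.70 ± 0.28 (limma adjusted p = 0.0440 and 0.130). In MMACSF the ZMAT3 groups overlapped, between 9.36 and 20.4 FPKM, with differences of 0.50 ± 0.30 and 0.37 ± 0.30. SESN1, a sestrin that restrains mTORC1 signaling under stress, stood at 6.37 and 9.01 FPKM in COLO858 in DMSO, at 10.9 and 14.7 FPKM after 24 h and at 8.37 and 10.4 FPKM after 48 h. Only its 24 h libraries cleared the DMSO range, with a log2 difference of 0.67 ± 0.24 (limma adjusted p = 0.0971). In MMACSF, SESN1 stayed between 7.39 and 10.6 FPKM in all 6 libraries, with overlapping groups.

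FDXR and RRM2B supply electrons and deoxynucleotides, respectively. FDXR, the mitochondrial reductase that passes electrons from NADPH to ferredoxin, lay between 13.1 and 24.8 FPKM in COLO858 and between 8.73 and 16.2 FPKM in MMACSF. Its groups overlapped in every comparison, and its largest log2 difference was -0.35 ± 0.32, in MMACSF at 48 h (limma adjusted p = 0.472). RRM2B, the p53-inducible small subunit of ribonucleotide reductase, stood at 5.97 and 10.1 FPKM in COLO858 in DMSO and at 10.8 and 14.8 FPKM after 24 h. The 24 h libraries of RRM2B were above DMSO by 0.64 ± 0.31 on the log2 scale (limma adjusted p = 0.196), and at 48 h, with 7.52 and 11.2 FPKM, the groups overlapped. In MMACSF, RRM2B lay between 8.96 and 16.1 FPKM with overlapping groups throughout.

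GDF15, a secreted cytokine of the TGF-β superfamily, was the most abundant of the 9 genes in DMSO. In COLO858 it stood at 2786 and 1429 FPKM in DMSO, at 840 and 361 FPKM after 24 h and at 692 and 347 FPKM after 48 h. Every drug-treated library was below both DMSO libraries, and the means were 3.51-fold and 4.06-fold lower than in DMSO. The log2 differences of -1.86 ± 0.57 and -2.02 ± 0.57 did not pass the threshold with the replicates taken as unpaired (limma adjusted p = 0.0685 and 0.0556). In MMACSF, GDF15 stood at 857 and 426 FPKM in DMSO, at 87.0 and 38.0 FPKM after 24 h and at 101 and 52.9 FPKM after 48 h. The groups again did not overlap, with means 10.3-fold and 8.32-fold lower than in DMSO. The log2 differences of -3.37 ± 0.55 and -3.03 ± 0.55 missed the threshold as well (limma adjusted p = 0.0147 and 0.0162). Replicate 1 was between 1.91 and 2.33 times replicate 2 in all 6 groups, so each group's spread was wide although the shift in drug was seen in both replicates. The miRNA gene MIR3189 lies within GDF15 on the same strand, and reads within the 73 bases they share cannot be told apart.

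GDF15 is not alone in having replicates that differ in a fixed direction. Replicate 2 exceeded replicate 1 in all 3 groups of each line for MDM2, SESN1, TP53INP1, ZMAT3 and RRM2B, by 1.09-fold to 1.68-fold, and was below it in all 3 groups of each line for FDXR and GDF15. The share of summed FPKM listed for MIR4461 moved with the replicate number too, at 14.1% to 19.0% in the 6 replicate 1 libraries and 25.8% to 43.4% in the 6 replicate 2 libraries. Its part in the results was not tested. The labels do not say that a number marks a shared day or batch, and the comparisons above treat the replicates as unpaired. A fit with the replicate number as a block is given in the last section. In that fit GDF15 was called lower at both times in each line, and calls over all genes grew as well.

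MDM2, the ubiquitin ligase that marks p53 for degradation, stood at 11.0 and 16.8 FPKM in COLO858 in DMSO, at 14.1 and 19.3 FPKM after 24 h and at 12.3 and 19.5 FPKM after 48 h. In MMACSF it stood at 98.9 and 132 FPKM in DMSO, at 96.5 and 126 FPKM after 24 h and at 85.2 and 121 FPKM after 48 h. The groups of each line overlapped. In COLO858 the log2 differences from DMSO were 0.26 ± 0.31 at 24 h and 0.18 ± 0.31 at 48 h, and in MMACSF they were -0.05 ± 0.25 and -0.17 ± 0.25 (limma adjusted p = 0.571, 0.717, 0.906 and 0.647).

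MDM2 differed between the lines far more than between treatments. Its DMSO mean was 13.9 ± 4.07 FPKM (SD, n = 2) in COLO858 and 116 ± 23.7 FPKM (SD, n = 2) in MMACSF, a ratio of 8.31. Of 11700 genes that passed the filter in both lines, 127 had a larger log2 ratio of MMACSF to COLO858. Among the other members the ratio was 3.78 for TP53INP1, 2.68 for TP53I3 and 0.304 for GDF15, and the remaining 5 lay between 0.687 and 1.67. The 2 tables were deposited separately, so these ratios are descriptions and carry no test.

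The genes next to MDM2 were then examined, a choice made after its levels had been seen. MDM2 lies on chromosome 12 at 69201957 to 69239324 on the plus strand (GRCh37). Of 16 other genes within 1000000 bases of it, 11 passed the filter in both lines, and all 11 had a higher DMSO mean in MMACSF than in COLO858. Their log2 ratios had a median of 1.81 and ran from 0.20 for CPSF6 to 2.53 for CPM, with 8 above 1. Over all 11700 genes, 44.4% had a ratio above 0 and 10.2% had one above 1. Among the 11 were the chaperonin subunit CCT2, at 143 FPKM in COLO858 and 669 FPKM in MMACSF, the signaling adaptor FRS2, at 2.80 and 13.5 FPKM, and the nucleoporin NUP107, at 25.7 and 92.6 FPKM. Further out, between 1.2 and 5 Mb from MDM2, 3 of 13 genes upstream and 1 of 6 downstream had a log2 ratio above 1, with medians of -0.04 and -0.54. DYRK2, a kinase gene 1.16 Mb upstream with a log2 ratio of -1.35, lies between these distance ranges and is in neither count. CPM overlaps the 3′ end of MDM2 by 3348 bases on the opposite strand. As the strand setting of the counting is not stated, reads of this pair within those 3348 bases cannot be told apart.

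**Figure D3:**
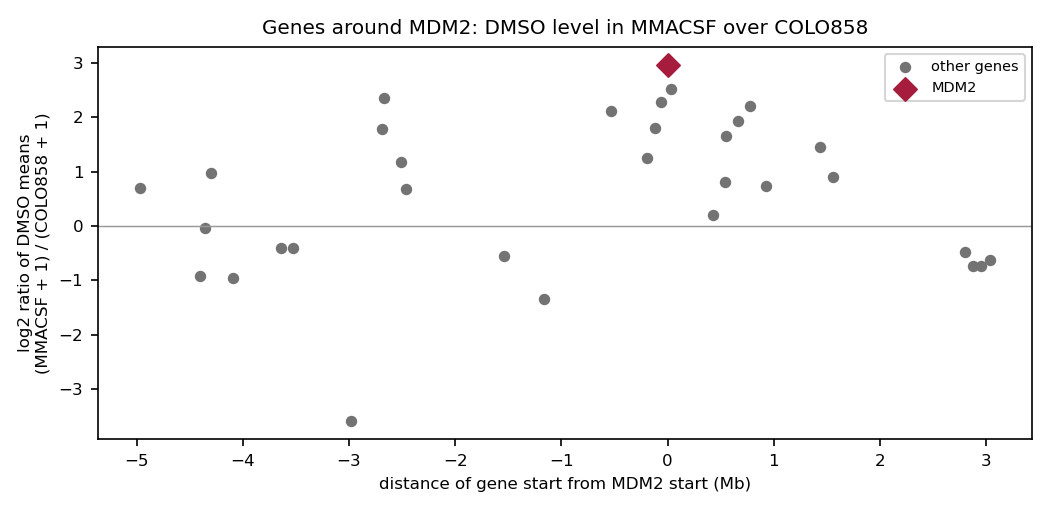
Log2 ratio of the DMSO means in MMACSF to COLO858, each with 1 FPKM added, against the distance of each gene's start from the MDM2 start in Mb, for the 32 genes within 5 Mb that passed the filter in both lines. MDM2 (diamond) is at 2.97, and the 11 genes within 1 Mb all lie above 0, with a median of 1.81.

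The genes with profiles most like MDM2 over the 12 libraries were ARPP19, EAF1, ORC4, MTERF and UBTD2, with Pearson's r of 0.979, 0.978, 0.975, 0.974 and 0.972 among 11699 genes compared. The log2 values were first centred on each line's own mean, so the coefficients do not reflect the level difference between the lines. In all 6 groups replicate 2 lay above replicate 1 for MDM2 and for each of these 5 genes. No p is attached to the coefficients.

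In order of level, GDF15 was first in COLO858 in every condition, above the next gene in both replicates. FDXR was second in DMSO at 19.6 FPKM, followed by MDM2, ZMAT3, RRM2B and SESN1, whose ranges overlapped from one to the next, and TP53INP1 was last. After 24 h in drug the 8 genes other than GDF15 all lay within means of 12.8 and 23.9 FPKM, with each overlapping its neighbor. In MMACSF the order in DMSO was GDF15, MDM2 and then TP53I3 at 17.5 FPKM. At 24 h MDM2 was above GDF15 in both libraries, at means of 111 and 62.5 FPKM, and at 48 h their ranges overlapped.

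Whether the 2 lines differed in their response was tested as the COLO858 change minus the MMACSF change over all 12 libraries, with each change taken against the line's own DMSO libraries. With the replicates taken as unpaired, BTG2 was the only one of the 9 called, with a difference of 1.04 ± 0.20 at 48 h (limma adjusted p = 0.00980). At that time 7.48% of 13595 genes were called, 4.19% with a difference above 0, which includes genes that fell less in COLO858. The 24 h difference of BTG2 was 1.07 ± 0.20 (limma adjusted p = 0.0135). For TP53I3 the differences were 0.80 ± 0.20 at both times (limma adjusted p = 0.0410 and 0.0278), and for TP53INP1 they were 1.50 ± 0.38 and 1.26 ± 0.38 (limma adjusted p = 0.0468 and 0.0612). For GDF15 they were 1.51 ± 0.91 and 1.00 ± 0.91 (limma adjusted p = 0.412 and 0.560). At 24 h limma called 0 of the 9, with 3 at an unadjusted p under 0.05, where 3.71% of all genes were called and 21.2% had an unadjusted p under 0.05. The median difference of the 9 genes was 0.66 at 24 h and 0.48 at 48 h, against -0.01 and -0.04 over all genes. All 9 values were above 0 at each time, which does not require a rise. For GDF15 at 24 h the log2 difference from DMSO was -1.86 in COLO858 and -3.37 in MMACSF. With 1 library left out, the difference between the lines ran from -0.14 to 0.32 for SESN1 at 48 h. For FDXR at 24 h it ran from -0.43 to 0.45. Leaving out any one of the 12 libraries ended the BTG2 call at 48 h, with differences of 0.90 to 1.17. Each such fit has 1 library in a group, and calls over all genes became fewer too.

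The change between 24 and 48 h in drug was tested in each line. In COLO858 limma called 0 of the 9 genes, with 3 at an unadjusted p under 0.05, where 1.38% of genes were called and 20.1% had such a p. The 48 h value was below the 24 h value for 8 of the 9, with a median log2 difference of -0.39 against -0.07 over all genes. In MMACSF it called 0 of the 9, with 1 at an unadjusted p under 0.05, where 0.222% of genes were called and 6.98% had such a p, and the median was -0.24 against -0.02. The line difference of this change gave 0 calls among the 9 by limma and 0 at an unadjusted p under 0.05, where 2.96% of genes were called and 17.4% had such a p.

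MDM4, a relative of MDM2 that also inhibits p53, lay between 2.54 and 5.29 FPKM over all libraries and was not called. Of 16 regulators and relatives of p53, MDM4 among them, 15 were tested in COLO858 and 13 in MMACSF. At 48 h CDKN2A was the only one called in COLO858, where 9.47% of all tested genes were called. Its locus encodes an inhibitor of MDM2 and an inhibitor of cyclin-dependent kinases. CDKN2A stood at 261 and 190 FPKM in DMSO, at 31.6 and 17.8 FPKM after 24 h and at 28.3 and 22.0 FPKM after 48 h. CDKN2A fell by 3.17 ± 0.32 and 3.11 ± 0.32 on the log2 scale (limma adjusted p = 0.00331 and 0.00371). A gene-level value cannot separate the 2 products of this locus. In MMACSF at 48 h only CHEK1, a checkpoint kinase that phosphorylates p53, was called, and it fell by 1.29 ± 0.19 (limma adjusted p = 0.00879). Over all tested genes 8.83% were called there. CHEK1 also fell in COLO858 at 24 h, by 2.16 ± 0.23 (limma adjusted p = 0.00358), together with CDKN2A, CHEK2 and TP73, while HIPK2, a kinase of p53, rose by 1.10 at that time. These 5 calls among 15 stand beside 9.82% of all tested genes called.

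A wider list of 32 p53 targets was then read for comparison, of which 30 were tested in COLO858 and 31 in MMACSF. COLO858 at 24 h had 1 rise and 3 falls among them, and at 48 h it had 2 rises and 1 fall. MMACSF had 0 rises and 2 falls at 24 h, followed at 48 h by 1 rise and 4 falls. In COLO858 the list's median log2 change was 0.03 (24 h) and then 0.04 (48 h), and in MMACSF it was -0.47 and then -0.35, against all-gene medians between -0.01 and 0.07. These 4, 3, 2 and 5 calls, in that order, stand beside 9.82%, 9.47%, 5.83% and 8.83% of all tested genes called. Among all genes called in COLO858, 522 of 1247 were higher at 24 h and 602 of 1202 at 48 h. In MMACSF 280 of 734 and 431 of 1113 were higher.

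CDKN1A, the p21 inhibitor of cyclin-dependent kinases and the best known p53 target, went opposite ways in the 2 lines. In COLO858 it stood at 111 and 102 FPKM in DMSO, at 115 and 110 FPKM after 24 h and at 186 and 174 FPKM after 48 h. In MMACSF it stood at 48.3 and 44.5 FPKM in DMSO, at 28.1 and 25.5 FPKM after 24 h and at 22.0 and 23.3 FPKM after 48 h. The 48 h libraries lay above DMSO in COLO858 and below it in MMACSF. CDKN1A fell by 1.00 ± 0.12 on the log2 scale in MMACSF at 48 h (limma adjusted p = 0.00528), and the difference of 0.75 ± 0.12 in COLO858 just missed the threshold (limma adjusted p = 0.0107). The line difference was 0.86 ± 0.14 at 24 h and 1.76 ± 0.14 at 48 h (limma adjusted p = 0.00790 and 0.000146). The share of genes called with a line difference above 0 was 1.78% and 4.19% at those times.

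Among the other arrest and repair targets, PLK2, a stress-induced polo-like kinase, rose in COLO858 by 1.61 ± 0.17 at 24 h and 1.58 ± 0.17 at 48 h (limma adjusted p = 0.00338 and 0.00387). In MMACSF its log2 difference was 0.58 ± 0.11 at 24 h, which did not pass the threshold although both libraries lay above DMSO, and 0.12 ± 0.11 at 48 h (limma adjusted p = 0.0243 and 0.484). The line difference of PLK2 was 1.03 ± 0.19 at 24 h and passed the test at 48 h, at 1.46 ± 0.19 (limma adjusted p = 0.0125 and 0.00148). XPC, a DNA damage sensor of nucleotide excision repair, rose in MMACSF by 0.85 ± 0.12 at 48 h (limma adjusted p = 0.00818), and its difference in COLO858 was 0.62 ± 0.13 (limma adjusted p = 0.0265). E2F7, a repressor of cell cycle genes, fell in MMACSF by 1.78 ± 0.22 at 48 h (limma adjusted p = 0.00542), where its 24 h difference was -1.25 ± 0.22 (limma adjusted p = 0.0168). In COLO858 E2F7 fell by 1.89 ± 0.17 at 24 h and differed by -0.52 ± 0.17 at 48 h (limma adjusted p = 0.00226 and 0.0745). Of 10 genes in this group, PLK2 and E2F7 were the 2 called in COLO858 at 24 h, and PLK2 was the 1 called at 48 h. In MMACSF limma called 0 of the 10 at 24 h, with 7 at an unadjusted p under 0.05, and at 48 h 1 was called higher and 2 lower. The shares called over all genes were again 9.82% and 9.47% in COLO858 and 5.83% and 8.83% in MMACSF. In MMACSF at 24 h 36% of all genes had an unadjusted p under 0.05.

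Among 10 targets that act in cell death, FAS and PMAIP1 went apart in COLO858. FAS, a death receptor of the cell surface, stood at 1.49 and 1.76 FPKM in DMSO, at 3.67 and 4.95 FPKM after 24 h and at 11.2 and 14.4 FPKM after 48 h. FAS rose by 2.38 ± 0.20 on the log2 scale at 48 h (limma adjusted p = 0.00215), and the line difference at 48 h was 1.76 ± 0.28 (limma adjusted p = 0.00430). PMAIP1, the BH3-only protein NOXA, stood at 13.0 and 19.2 FPKM in DMSO and at 2.01 and 2.88 FPKM after 48 h. It fell by 2.30 ± 0.26 in COLO858 and by 1.29 ± 0.15 in MMACSF at 48 h (limma adjusted p = 0.00467 and 0.00527), and it had also fallen at 24 h, with changes of -2.25 ± 0.26 and -1.11 ± 0.15 (limma adjusted p = 0.00458 and 0.00959). AEN, an apoptosis-linked nuclease, fell in MMACSF by 0.87 ± 0.12 at 24 h and 0.90 ± 0.12 at 48 h (limma adjusted p = 0.00858 and 0.00639), and in COLO858 it fell by 0.78 ± 0.12 at 24 h and differed by -0.59 ± 0.12 at 48 h (limma adjusted p = 0.00891 and 0.0202). Of the 12 targets with metabolic or other roles, 10 were tested in COLO858 and 11 in MMACSF, and limma called 0 in each line at 48 h, with 3 and 6 at an unadjusted p under 0.05, against 39.3% and 38.9% of all genes.

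**Figure D4:**
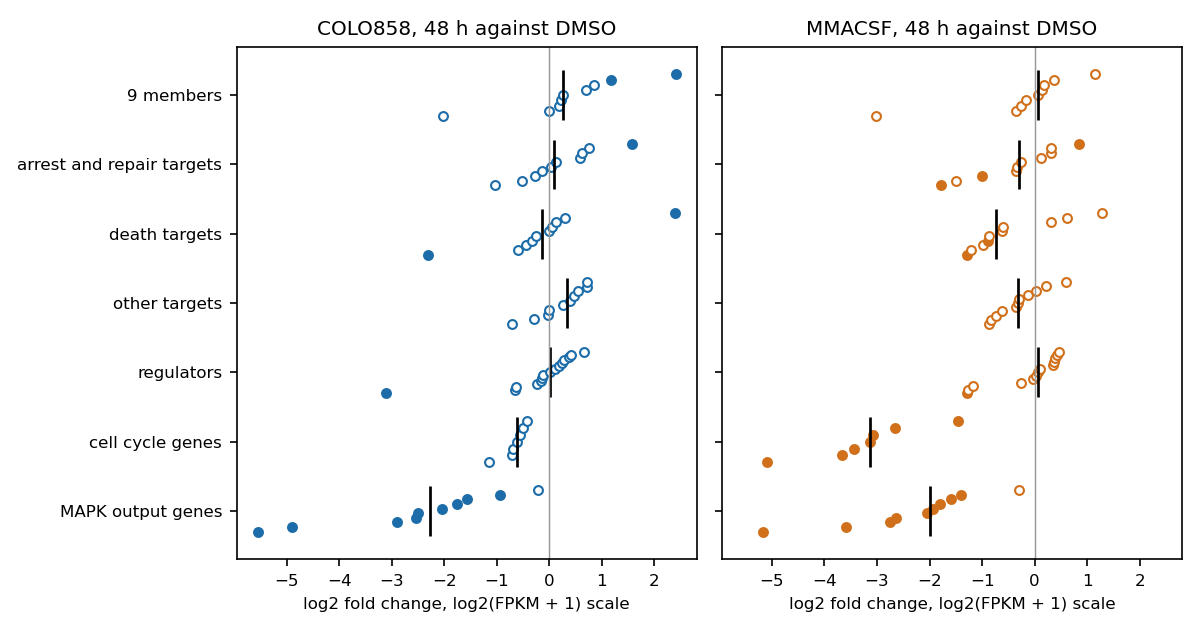
Log2 fold change at 48 h against DMSO on the log2(FPKM + 1) scale for each tested gene of 7 lists, with COLO858 on the left and MMACSF on the right. Points are genes, filled where the adjusted p was under 0.01, and vertical bars are list medians, which for the cell cycle genes were -0.62 in COLO858 and -3.13 in MMACSF.

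Relatives and partners of the 9 genes were read beside them. RRM2, the S-phase counterpart of RRM2B, stood at 79.4 and 114 FPKM in COLO858 in DMSO, at 7.41 and 8.77 FPKM after 24 h and at 51.9 and 72.1 FPKM after 48 h. In MMACSF it stood at 34.9 and 43.8 FPKM in DMSO, at 1.13 and 1.50 FPKM after 24 h and at 0.612 and 0.585 FPKM after 48 h. RRM2 changed by -3.41 ± 0.25 at 24 h in COLO858 and by -4.12 ± 0.18 and -4.65 ± 0.18 at 24 and 48 h in MMACSF (limma adjusted p = 0.00145, 0.000565 and 0.000345). In COLO858 it rose again by 2.78 ± 0.25 from 24 to 48 h (limma adjusted p = 0.00769). RRM2B, in contrast, was not called with the replicates taken as unpaired. Its mean level exceeded that of RRM2 in drug in MMACSF at both times, at 13.0 against 1.31 FPKM and 10.9 against 0.598 FPKM. RRM1, the large subunit shared by both, fell by 2.04 in COLO858 at 24 h and by 1.69 and 2.03 in MMACSF.

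SESN3, a second sestrin, rose in both lines and at both times. It stood at 3.18 and 3.47 FPKM in COLO858 in DMSO and at 17.7 and 18.5 FPKM after 24 h, and at 13.9 and 14.7 FPKM in MMACSF in DMSO and 47.7 and 52.9 FPKM after 48 h. SESN3 rose on the log2 scale by 2.14 ± 0.14 and 2.06 ± 0.14 in COLO858 (24 and 48 h), and by 1.45 ± 0.12 and 1.74 ± 0.12 in MMACSF (limma adjusted p = 0.00115, 0.00126, 0.00256 and 0.00113). SESN2 was not called, with log2 differences of 0.02 to 0.43. TP53INP2, the paralog of TP53INP1, stood at 15.0 and 13.9 FPKM in COLO858 in DMSO and at 73.3 and 75.5 FPKM after 24 h. It rose by 2.29 ± 0.12 and 1.97 ± 0.12 in COLO858 (limma adjusted p = 0.000787 and 0.00105), and its differences in MMACSF were 0.65 ± 0.13 and 0.10 ± 0.13. For TP53INP2 the line difference passed the test at both times, at 1.64 ± 0.15 and 1.86 ± 0.15 (limma adjusted p = 0.000539 and 0.000135).

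BTG3, an antiproliferative relative of BTG2, fell by 1.33 ± 0.19 in COLO858 at 24 h (limma adjusted p = 0.00801) and was level with DMSO at 48 h. In MMACSF it fell by 1.25 ± 0.14 and 1.26 ± 0.14 (limma adjusted p = 0.00595 and 0.00458). TP53I11, another p53-induced gene, fell in COLO858 by 1.72 ± 0.17 and 1.62 ± 0.17 (limma adjusted p = 0.00299 and 0.00384) and was below the filter in MMACSF. BTG1, FDX1 and FDX1L, the latter 2 being the electron acceptors of FDXR, were not called, and ZMAT4 was listed at 0 in all 12 libraries.

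The cell cycle and the drugged pathway moved alongside these genes. Of 7 cell cycle genes, all 7 fell at 24 h in COLO858 and at both times in MMACSF, with medians of -2.74, -2.39 and -3.13. Over all tested genes 9.82%, 5.83% and 8.83% were called in these comparisons, in that order. At 48 h in COLO858 limma called 0 of the 7, with 4 at an unadjusted p under 0.05 and a median of -0.62. Over all tested genes 39.3% had such a p there. MKI67, a marker of dividing cells, stood at 15.9 and 19.8 FPKM in COLO858 in DMSO, at 2.47 and 2.91 FPKM after 24 h and at 10.9 and 12.5 FPKM after 48 h. Of 10 output genes of the MAPK pathway, 9 fell in each of the 4 comparisons with DMSO, with medians between -1.98 and -2.82, and PHLDA1 was the exception. SPRY4, a feedback inhibitor of the pathway, fell by 4.90 in COLO858 and by 2.76 in MMACSF at 48 h (limma adjusted p = 0.000137 and 0.000504).

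Of 5 genes of the ATF4 stress response, which also drives GDF15, 1 rose and 3 fell in COLO858 at 48 h, and in MMACSF limma called 0, with 4 at an unadjusted p under 0.05. Over all tested genes 9.47% were called in COLO858 and 8.83% in MMACSF, where 38.9% had such a p. In COLO858 ATF3 rose by 2.72 and ASNS fell by 2.15 (limma adjusted p = 0.00182 and 0.00180). The part of these lists in the levels of the 9 p53 targets was not tested.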

How the data were processed

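RNA of 12 libraries (TruSeq stranded mRNA, single reads of 50 bases) was mapped and quantified by the authors with TopHat and Cuffdiff, and the FPKM they deposited, 1 table per line, were used as they stand. Program versions, the annotation, the library scaling and the strand setting are not given in the sources used here. Depth is unknown, so no counting error is given. No sample column went unused (0 of 12). The 9 genes and every list were chosen with earlier results of these data known.

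Each line was fitted with limma 3.58.1 (R 4.3.3) on log2(FPKM + 1), as a fold change on that scale, with 3 groups and a mean-variance trend, over genes whose mean reached 1 FPKM in some group. A fit over all 12 libraries gave the line difference. The fits were tested on simulated data with independent noise in each library. The simulation held no shift by replicate number, so it cannot show how the fits behave under one. p-values were adjusted by Benjamini-Hochberg over all tested genes, with 0.01 as the threshold. Fold changes of low genes are understated by the added 1 FPKM.

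The 9 genes, MDM4 and CDKN1A were named in any case (1 further gene of this rule is not reported here), from other lists those past the threshold at 48 h (at most 4 per direction, list and line), each paralog or partner once, and at most 2 genes of the cell cycle, MAPK and ATF4 lists. Values at 24 h were added for genes so named, and CHEK2, TP73 and HIPK2 were named after their values were seen, as were the genes around MDM2. Alternatives were another pseudocount, no minimum and a minimum of 10 FPKM, median-ratio rescaling, a replicate block, a threshold of 0.05, fits on just the 4 libraries of a comparison, and omission of each library in turn. Gene positions are from GENCODE v44 lifted to GRCh37, and start windows from RefSeq on GRCh38.p14. The printed stretches were placed in GRCh37 by exact match.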

Additional observations from a re-analysis of the deposited data

Results flagged for a closer look

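BTG2 was the only 1 of the 9 genes whose change differed between the lines past the threshold. This was a test of the difference itself, with the replicates taken as unpaired. At 48 h against DMSO the COLO858 change of 1.18 exceeded the MMACSF change of 0.14 by 1.04 ± 0.20 on the log2 scale (limma adjusted p = 0.00980). Both 48 h libraries of COLO858 were above its DMSO libraries, whereas those of MMACSF overlapped theirs. The call was near the threshold and was lost with any 1 of the 12 libraries left out, when calls over all genes fell as well. With the replicate number as a block, 6 of the 9 genes passed at 24 h and 4 at 48 h, BTG2 among them. Of 13595 genes, 2396 and 3434 then passed.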

How the results depend on the processing

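The counts of members past the threshold were 3 and 2 in COLO858 (24 and 48 h), 0 and 0 in MMACSF, and 0 and 1 for the line difference. With 0.1 FPKM added, the line difference at 48 h gave 0. With no minimum the counts were 1 and 0 in COLO858 and 0 for the line difference at 48 h. With only the 4 libraries compared they were 1 and 0 in COLO858. After median-ratio rescaling the line difference at 24 h gave 1 and COLO858 at 48 h gave 3, with TP53I3 added. At a threshold of 0.05 there were 4 and 3 in COLO858, 3 and 2 in MMACSF, 3 and 2 for the line difference, and 1 for 48 against 24 h in COLO858. A minimum of 10 FPKM kept every count of members. Leaving out 1 library gave 0 to 1 in COLO858 at 24 h and 0 to 0 in each other comparison.

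Same-numbered replicates are not stated to be paired, and their deviations correlated at 0.196 to 0.211 in COLO858 and 0.0628 to 0.113 in MMACSF. With the replicate number as a block, members past the threshold numbered 7, 5 and 3 in COLO858 (24 h, 48 h, 48 against 24 h), 4 and 2 in MMACSF (24 and 48 h) and 6 and 4 for the line difference. GDF15 was then called lower at both times in COLO858 (limma adjusted p = 0.000255 and 0.000236) and in MMACSF (limma adjusted p = 0.000700 and 0.000467). The other new calls included TP53INP1 in MMACSF and ZMAT3 in COLO858. In COLO858 at 24 h they also included SESN1 and RRM2B (limma adjusted p = 0.00178 and 0.00371). For the line difference, TP53INP1, GDF15 and TP53I3 were added at 24 and 48 h, and ZMAT3 and RRM2B at 24 h. Calls over all genes grew as well, from 1247 to 5719 in COLO858 and from 734 to 3284 in MMACSF at 24 h.

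Over all genes, no minimum gave 511 and 602 calls in COLO858 in place of 1247 and 1202, and 170 and 313 in MMACSF in place of 734 and 1113, while the 4 libraries alone gave 477, 380, 59 and 364 in that order. No called change of the 9 genes changed sign in these settings. Under median-ratio rescaling 5 uncalled differences near 0 did, among them SESN1 in MMACSF at 24 h (0.04 to -0.04). With 1 library left out, further uncalled differences changed sign. In COLO858 these included MDM2 at 24 h against DMSO (-0.02 to 0.54) and RRM2B at 48 h (-0.12 to 0.55). GDF15 at 48 against 24 h in COLO858 ran from -0.78 to 0.44. The cause of these changes in counts was not tested, beyond the fewer libraries or more genes in some fits.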
